A study of Mus musculus with 20 samples.

Results

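The 32 genes described here encode the enzymes of glycolysis, the transporters that carry glucose in and lactate out, and further genes that cells switch on when oxygen is short. They were chosen by name, as 32 of the 24795 genes in a table of mouse intestinal RNA sequencing, and all 32 were found there. They fall into 17 glycolytic enzymes, 4 glucose and lactate transporters, 10 other hypoxia-inducible genes and Hif1a, the oxygen-regulated subunit of the transcription factor HIF. The 20 libraries form 3 groups. The first is 7 libraries of Apc Min genotype given a control treatment, referred to below as control. The second is 6 libraries of the same genotype given DM-aKG, a cell-permeable dimethyl ester of alpha-ketoglutarate. The third is 7 libraries of untreated WT mice. The Min allele truncates the Wnt pathway suppressor Apc and gives mice many intestinal adenomas. The sources used here do not give the dose, the length of treatment, or the age and strain of the mice. The labels state a medium low in glutamine for the material, and they name it in one field as tissue and in others as intestinal organoids and primary cells. They do not tie each library to a separate animal, so a p-value here weighs a difference against the spread of libraries within a group, which may in part be technical.

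Glycolysis splits glucose into pyruvate, and lactate dehydrogenase turns pyruvate into lactate when it is not burned in mitochondria. HIF is a pair of an oxygen-labile alpha subunit and a stable partner. When oxygen is present, prolyl hydroxylases of the Egln family, which use alpha-ketoglutarate as a co-substrate, mark the alpha subunit for destruction through Vhl. When oxygen is short the alpha subunit builds up and HIF binds short ACGTG or GCGTG sites near its targets, among them Slc2a1, Pgk1, Ldha, Car9, Vegfa and Bnip3. The transcript level of Hif1a does not report this protein step. Many of the same glycolytic genes are also expressed strongly in tumours and in dividing cells at normal oxygen.

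The level used is RPKM, the reads on a gene per kilobase of its length, scaled by the mapped reads of the library, so levels can be set side by side between genes. Depth estimated from the steps between low values was 21.25 to 29.3 M reads per library, which puts about 29 reads behind the lowest value of Adm, about 112 behind that of Slc2a3 and about 114 behind that of Aldoc. Changes are differences of mean log2(RPKM + 1) with their standard error (SE), which understates the change of genes with low values. A gene is called higher or lower where limma, fitted to 12433 genes, gave it an adjusted p (Benjamini-Hochberg) below 0.05. Markers of smooth muscle, lymphocytes, endothelium, fibroblasts and myeloid cells were measured in every group beside those of epithelium, and no marker was at 0 in all libraries of a group. The summed RPKM of 8 epithelial markers ran from 5504 to 7554 in WT, from 4026 to 6036 in control and from 2935 to 4257 with DM-aKG.

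Promoter sequence was taken from RefSeq (GRCm38.p6), as windows from 250 bases before to 50 bases after an annotated start. Of the 32 members, 29 matched at least 1 window. Slc2a3, Bnip3l and Ndrg1 had no entry. The core letters of the HIF site, ACGTG or GCGTG on either strand, stood in 35 of 44 member windows (79.5%) and in 14380 of 32851 windows of all genes (43.8%). The member windows were also richer in CpG, with a median of 20 against 7 CpG per window, and both motifs hold a CpG. By gene, 17 of the 18 matched members that fell with DM-aKG (below) held the letters in some window, and 9 of the 11 matched members that were not called did so. A match of 5 letters is a description and not a bound site. The 160 bases just before the RefSeq start are given for 4 members that fell with DM-aKG and for Bnip3, which was not called. Capitals mark the motif, read on the strand shown or on its complement, and matches may overlap.
Slc2a1, chr4:119108585-119108744, forward strand: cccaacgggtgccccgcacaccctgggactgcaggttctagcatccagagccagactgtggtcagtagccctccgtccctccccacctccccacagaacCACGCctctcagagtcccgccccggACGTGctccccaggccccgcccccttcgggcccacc
Hk2, chr6:82774455-82774614, reverse strand: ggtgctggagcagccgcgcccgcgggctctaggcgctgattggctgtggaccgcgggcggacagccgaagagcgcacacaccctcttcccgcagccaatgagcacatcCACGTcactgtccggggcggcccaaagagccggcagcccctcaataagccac
Pgk1, chrX:106186940-106187099, forward strand: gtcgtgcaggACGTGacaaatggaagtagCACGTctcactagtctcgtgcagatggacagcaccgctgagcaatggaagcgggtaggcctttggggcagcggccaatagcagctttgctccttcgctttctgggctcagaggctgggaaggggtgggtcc
Car9, chr4:43506866-43507025, forward strand: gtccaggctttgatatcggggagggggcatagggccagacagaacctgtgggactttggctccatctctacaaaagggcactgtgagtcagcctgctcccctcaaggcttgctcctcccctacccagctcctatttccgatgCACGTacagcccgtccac
Bnip3, chr7:138909507-138909666, reverse strand: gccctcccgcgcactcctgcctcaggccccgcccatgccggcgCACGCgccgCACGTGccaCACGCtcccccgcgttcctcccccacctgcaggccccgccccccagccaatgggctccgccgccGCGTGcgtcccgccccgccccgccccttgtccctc

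Slc2a1 held its motifs 61 and 36 bases before the RefSeq start and Car9 held 1 at 18 bases. The GENCODE M21 starts of Slc2a1 (119108711), Car9 (43506966) and Bnip3 (138909519, reverse strand) lie within the printed bases. The Car9 motif therefore stands inside the gene as GENCODE places it. Pgk1 held a pair, 150 and 131 bases before the start. Bnip3 held 5 matches between 117 and 35 bases before its start, a pair of which overlap in CACGTG, where the letters stand on each strand.

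The genes of glucose use and of the hypoxia response stood higher in control Apc Min than in WT and, for many of them, lower again with DM-aKG. Of the 32 members, 21 were higher and 2 lower in control than in WT, where 43.2% of all genes tested were called higher and 15.7% lower. With DM-aKG, 19 of 32 were lower than in control and 0 were higher, where 27.6% of all genes were called lower and 5.91% higher. The median change of the members from control to DM-aKG was -0.556 (log2 scale), and that of all genes tested was -0.142, which leaves the member median -0.414 below it. From WT to control the member median was 0.773 against 0.199 for all genes, a difference of 0.573. These comparisons share the control libraries, so a high control value alone moves them in opposite directions, and the values of each are given side by side below.

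The scale of the libraries bears on these counts. Median-of-ratios, upper-quartile or quantile normalization brought the all-gene median change with DM-aKG to 0.000167, 0.019 and 0.022, and the all-gene split from 735 higher and 3432 lower to 1367 and 1817, 1540 and 1688, and 1750 and 1849. Under them 14, 14 and 17 members were lower with DM-aKG and 3 were higher each time. In the libraries numbered 5 to 7 alone (2 with DM-aKG, 3 in control) 9 members were lower. Of the 11205 genes tested in those libraries, 2382 were lower and 360 higher. Another 9 of the 19 (Pfkl, Aldoa, Tpi1, Pgam1, Eno1, Ldha, Slc16a3, Bnip3l and Ankrd37) no longer passed there, and Adm fell under the filter on low values. In the same libraries Gpi1, Pfkp, Pgam1 and Higd1a were no longer called in control over WT.

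**Figure D1:**
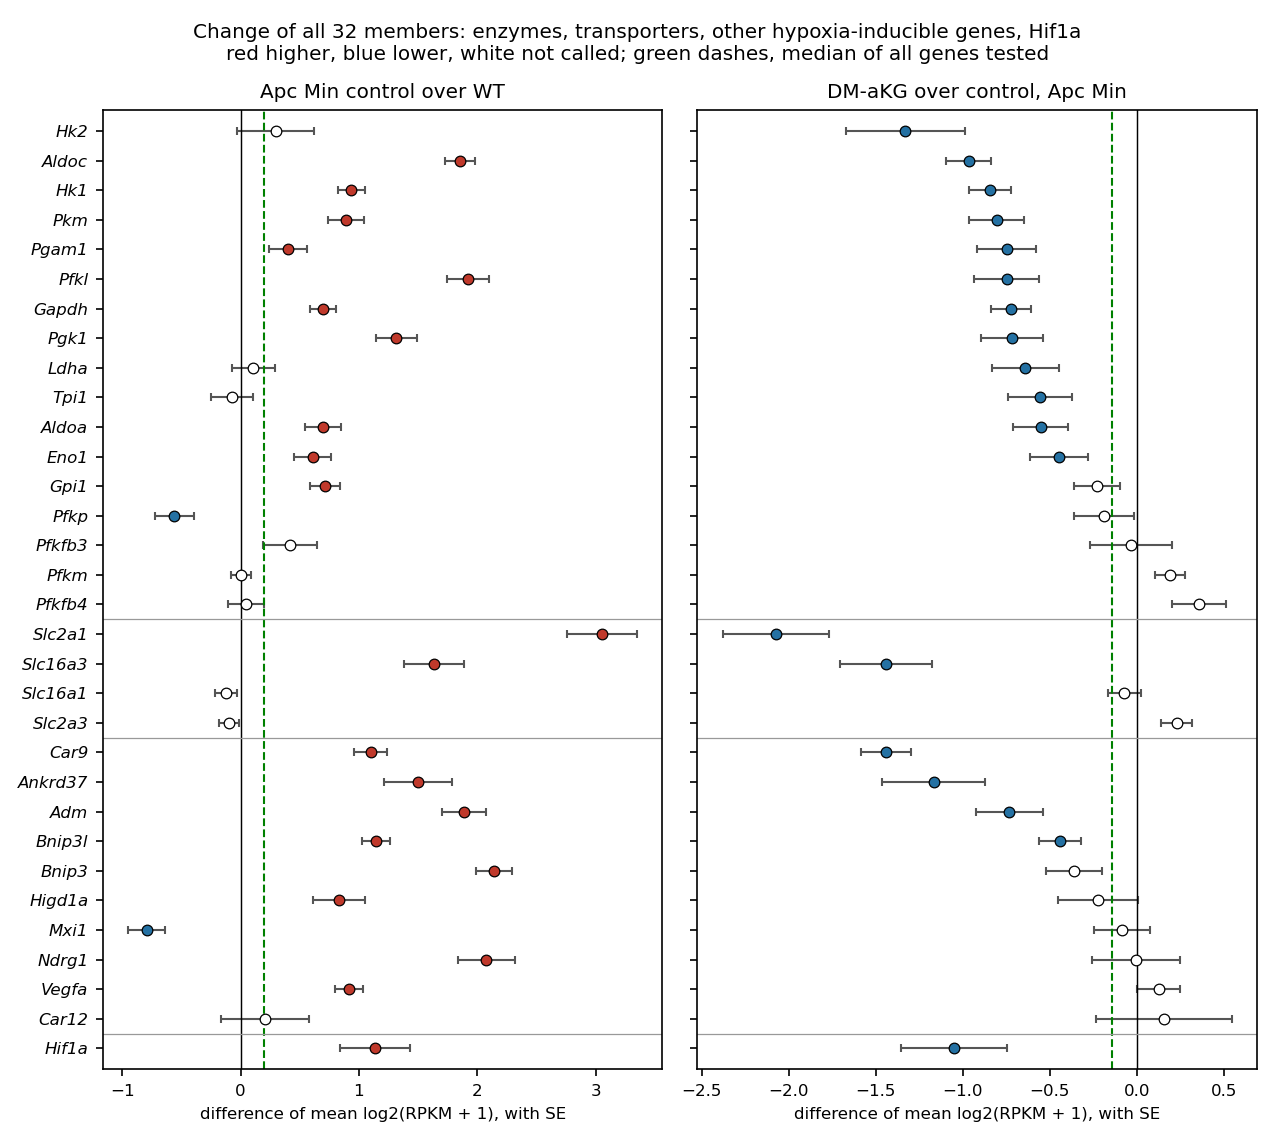
Difference of mean log2(RPKM + 1) with its SE for all 32 members, control over WT on the left and DM-aKG over control on the right, grouped into enzymes, transporters, other hypoxia-inducible genes and Hif1a. Red points were called higher, blue lower and white not called in limma, and the green dashed line is the median of all 12433 genes. Slc2a1 lies at 3.06 on the left and -2.07 on the right, the far end of each panel, while Ndrg1 and Vegfa lie at 2.07 and 0.91 on the left and at -0.01 and 0.13 on the right.

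Slc2a1 (chr4:119108711-119137983, forward strand, GENCODE M21 on mm10) encodes GLUT1, the glucose transporter of most dividing cells. Its RPKM was 3.46, 4.92 and 6.3 (lowest, median, highest) in WT, 27.1, 45 and 77.3 in control, and 4.68, 9.97 and 31.9 with DM-aKG. Every control library lay above every WT library, and 5 of 6 DM-aKG libraries lay at or under 13.7, below all control libraries. The mean rose 10.2-fold from WT to control (3.06 on the log2 scale, SE 0.29, adjusted p 4.88e-08). The control mean was 3.85-fold the DM-aKG mean (-2.07, SE 0.31, adjusted p 3.26e-05). DM-aKG replicate 2 gave the value of 31.9, and without it the change was -2.38 (adjusted p 2.71e-07). With DM-aKG the gene was still above WT (0.98, adjusted p 0.0159), a call that was lost in replicates 1 to 4 alone (1.18, adjusted p 0.059) and in replicates 5 to 7 alone (0.61).

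Slc16a3 encodes MCT4, a lactate exporter of cells with high glycolysis. It ran from 5.86 over a median of 8.77 to 15.7 RPKM in WT, from 17.5 over 27.9 to 58.7 in control, and from 5.15 over 10.4 to 16.7 with DM-aKG. Neither the WT nor the DM-aKG libraries overlapped the control libraries. Slc16a3 was higher in control than in WT by 1.63 and lower with DM-aKG by 1.44 (SE 0.26, adjusted p 0.000312), and it did not differ between DM-aKG and WT beyond the spread (0.19, adjusted p 0.574).

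The other transporters did not follow. Slc16a1, which encodes the lactate carrier MCT1, had medians of 17.6, 14.9 and 15.3 RPKM in WT, control and DM-aKG, and no comparison passed the test. Slc2a3, which encodes the high-affinity glucose transporter GLUT3, was near 1 RPKM, with medians of 0.922, 0.764 and 1.05. Its change with DM-aKG of 0.23 had an adjusted p of 0.0501, and it was called higher under each of the 3 other scalings and when control replicate 1 (adjusted p 0.0444), DM-aKG replicate 1 (0.0357) or DM-aKG replicate 6 (0.0383) was left out. Slc16a1 was called lower in control than in WT under the same 3 scalings and without control replicate 6 (-0.20, adjusted p 0.0431). It was called lower with DM-aKG than in control once the smooth muscle markers were a covariate (-0.32, adjusted p 0.0275), and lower with DM-aKG than in WT under median-of-ratios (-0.27, adjusted p 0.0195) and upper-quartile scaling (-0.24, adjusted p 0.0393), and with only those groups fitted (-0.20, adjusted p 0.0246).

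**Figure D2:**
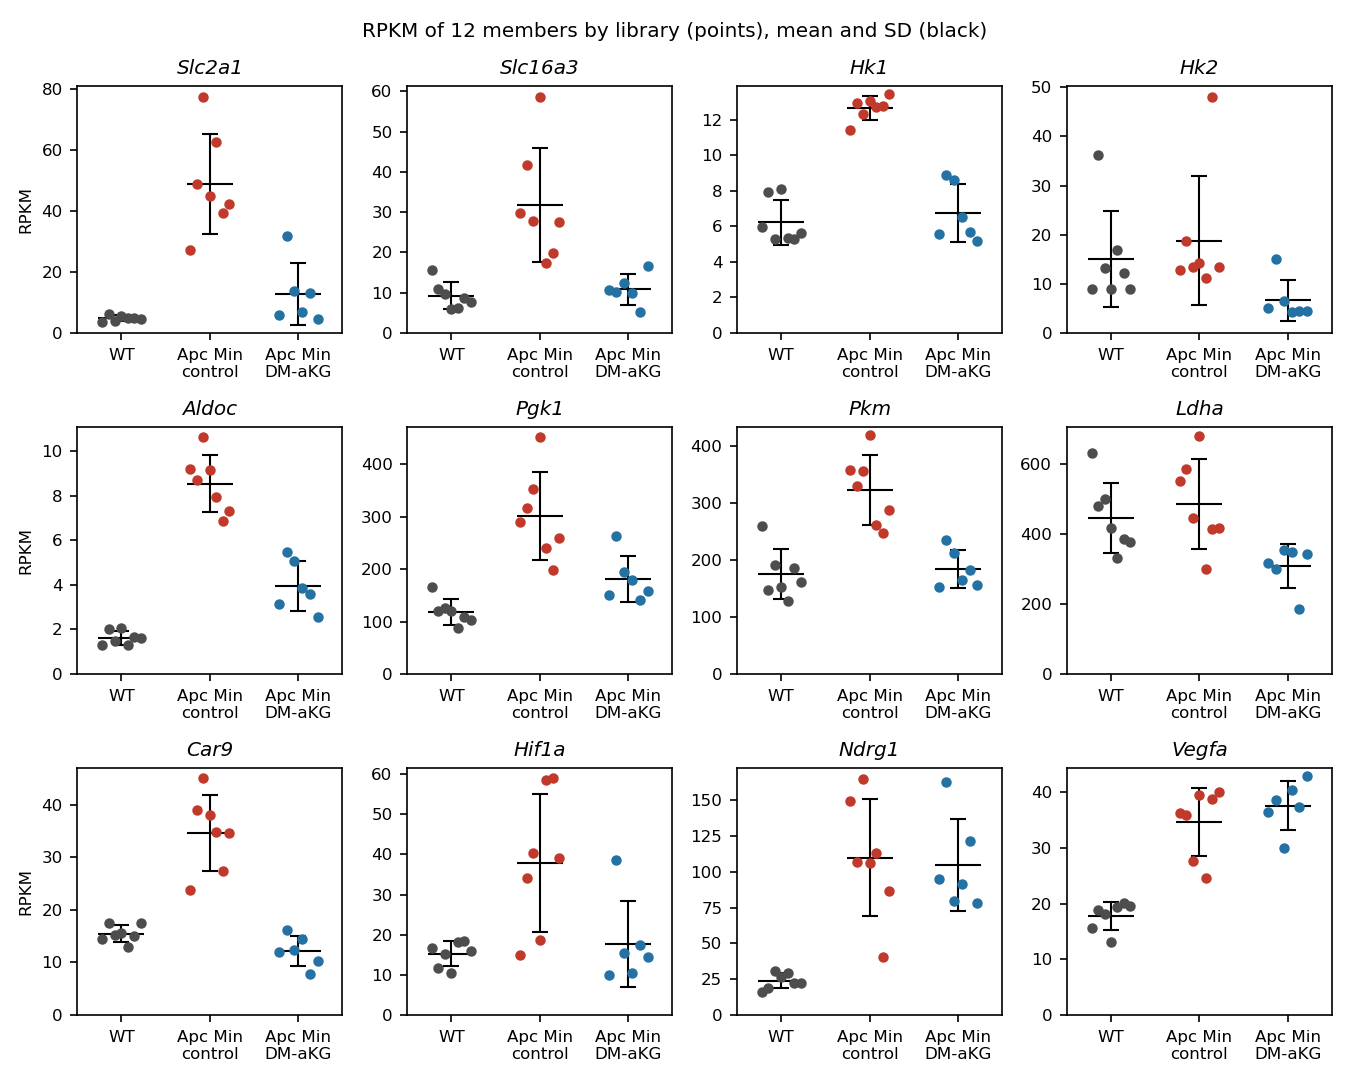
RPKM of 12 members in each library (points) with the group mean and SD (black), for WT (grey), Apc Min control (red) and Apc Min DM-aKG (blue), each panel on its own linear axis from 0. For Slc16a3, Hk1, Aldoc, Pkm and Car9 the blue points lie wholly under the red ones, while for Ndrg1 and Vegfa they share the range of the red points and lie above WT.

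Of the 17 enzymes, 10 were higher and 1 lower in control than in WT, and 12 were lower and 0 higher with DM-aKG than in control. Among all genes tested 43.2% were higher in the first comparison and 27.6% lower in the second. The median change with DM-aKG was -0.641. Median-of-ratios and upper-quartile scaling lost Aldoa, Tpi1, Eno1 and Ldha among these 12, quantile normalization lost Eno1, and all 3 called Pfkm and Pfkfb4 higher.

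Hexokinases trap glucose in the cell as glucose 6-phosphate. Hk1, the hexokinase found in nearly all cells, had 5.29, 5.63 and 8.11 RPKM in WT, 11.4, 12.8 and 13.5 in control, and 5.17, 6.11 and 8.9 with DM-aKG. Control libraries stood apart from all others. Hk1 rose by 0.94 from WT to control (SE 0.12, adjusted p 1.28e-06) and fell by 0.84 with DM-aKG (SE 0.12, adjusted p 2.24e-05), to a level that did not differ from WT beyond the spread (0.09, SE 0.12, adjusted p 0.554). Hk2 (chr6:82725025-82774454, reverse strand), the inducible hexokinase of muscle and tumours, behaved otherwise. Its values were 8.86, 12.2 and 36.2 in WT, 11.1, 13.4 and 48 in control, and 4.29, 4.78 and 15.1 with DM-aKG, with 1 library far above the rest in each group. Hk2 did not differ between control and WT (0.30, SE 0.33, adjusted p 0.458), and with DM-aKG it was under both: by 1.33 against control (SE 0.34, adjusted p 0.0055) and by 1.03 against WT (adjusted p 0.0224). Without DM-aKG replicate 2, its highest library there, the change against control was -1.57 (adjusted p 0.000889). In replicates 1 to 4 alone the change against control was -0.99 with an adjusted p of 0.129, and without DM-aKG replicate 5 that against WT had an adjusted p of 0.0524.

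Gpi1, which turns glucose 6-phosphate into fructose 6-phosphate, had medians of 104, 179 and 157 RPKM in WT, control and DM-aKG. It was higher in control than in WT (0.71, adjusted p 7.67e-05), and its change of -0.23 with DM-aKG did not pass (adjusted p 0.184). The phosphofructokinase subunits, which catalyse the committed step, went separate ways. Pfkl, the liver subunit, ran from 4.41 to 7.56 RPKM in WT, from 14.5 to 37.6 in control and from 9.72 to 17.5 with DM-aKG. It rose by 1.92 in control over WT (adjusted p 3.55e-08) and fell by 0.75 with DM-aKG (SE 0.19, adjusted p 0.00441), and every DM-aKG library was still above every WT library. Pfkp, the platelet subunit and the most abundant of the 3, was lower in control than in WT (medians 48.7 and 60.1, -0.56, adjusted p 0.00695) and was not called with DM-aKG (median 41.2, -0.19, adjusted p 0.41). With the smooth muscle markers as a covariate the control to WT difference of Pfkp was -0.13 (adjusted p 0.68). Pfkm, the muscle subunit, lay between 2.33 and 4 RPKM in all libraries and was not called in any comparison. It was called higher with DM-aKG once DM-aKG replicate 2 was left out (0.24, adjusted p 0.029).

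Pfkfb3 and Pfkfb4 make and break fructose 2,6-bisphosphate, the activator of phosphofructokinase, and both are textbook hypoxia-inducible genes. Neither was called between control and WT or with DM-aKG. Pfkfb3 had medians of 4.85, 8.13 and 7.17 RPKM in WT, control and DM-aKG. Leaving out control replicate 4 made its control over WT change 0.55 (adjusted p 0.033). Pfkfb4 had medians of 16.4, 13.4 and 20.2, with the DM-aKG libraries (18.3 to 22.7) all above the WT libraries (13.3 to 17.5). Its change of 0.36 against control had an adjusted p of 0.0824, and without control replicate 1, which gave the control group's highest value of 27.4, it was 0.48 with an adjusted p of 0.00548.

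The aldolases split the hexose into a pair of trioses. Aldoc, the brain aldolase, was a minor form by level, at 1.29, 1.6 and 2.07 RPKM in WT, 6.84, 8.69 and 10.6 in control and 2.57, 3.71 and 5.48 with DM-aKG. The 3 groups did not overlap, in the order WT, DM-aKG, control. It rose by 1.85 (SE 0.12, adjusted p 5.29e-10) and fell by 0.97 with DM-aKG (SE 0.13, adjusted p 1.04e-05). Aldoa, the abundant muscle-type aldolase, had medians of 204, 331 and 234. It was higher in control by 0.70 (adjusted p 0.000689) and lower with DM-aKG by 0.55 (SE 0.16, adjusted p 0.0114), which became -0.38 (adjusted p 0.097) with median-of-ratios scaling. Tpi1, which interconverts the trioses, had medians of 237, 224 and 166, and fell with DM-aKG by 0.56 (adjusted p 0.0249) without having been called in control over WT (-0.08). That call was lost without control replicate 2, control replicate 4, DM-aKG replicate 2 or DM-aKG replicate 5 (adjusted p 0.052, 0.0558, 0.0529 and 0.0703), and with only the control and DM-aKG groups fitted (0.0531).

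The enzymes of the lower, energy-yielding steps were mostly higher in control and lower with DM-aKG. Gapdh, the triose phosphate dehydrogenase and a common reference gene in PCR, was 33.4, 42.3 and 54.2 RPKM in WT, 56.1, 66.6 and 90.4 in control and 36, 40.5 and 46.6 with DM-aKG. Control libraries were above all others, with changes of 0.70 (adjusted p 2.33e-05) and -0.72 (SE 0.11, adjusted p 7.11e-05), and DM-aKG against WT was -0.03 (adjusted p 0.872). Pgk1, which makes the first ATP of the pathway, had 87.5, 120 and 165 RPKM in WT, 198, 290 and 453 in control and 141, 169 and 262 with DM-aKG. It rose by 1.32 (adjusted p 2.69e-06) and fell by 0.72 (SE 0.18, adjusted p 0.00431), and stayed above WT by 0.60 (adjusted p 0.0127). With the smooth muscle markers as a covariate its fall was -0.58 with an adjusted p of 0.092.

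Pgam1, which shifts the phosphate of 3-phosphoglycerate, had medians of 72.9, 99.1 and 64 RPKM in WT, control and DM-aKG. It fell by 0.75 with DM-aKG (SE 0.17, adjusted p 0.00185). Its rise of 0.40 in control over WT (adjusted p 0.0379) was lost without any of 7 single libraries (control 1, 2 or 4, or WT 2, 4, 5 or 6), with adjusted p from 0.0565 to 0.0914. That rise was 0.16 under median-of-ratios and under upper-quartile scaling (adjusted p 0.447 and 0.43), and it was also lost with the smooth muscle covariate (0.55, adjusted p 0.0884). Eno1, an enolase, had medians of 19, 29.6 and 20.7. It was higher in control by 0.61 (adjusted p 0.00288) and lower with DM-aKG by 0.45 (SE 0.17, adjusted p 0.0431), and the latter was lost without any of 9 single libraries (control 1 to 4, or DM-aKG 1, 3, 4, 5 or 6), with adjusted p from 0.0561 to 0.0872. The Eno1 rise was 0.37 and 0.38 under median-of-ratios and upper-quartile scaling (adjusted p 0.0821 and 0.0707), and with the smooth muscle covariate neither the rise (0.56, adjusted p 0.09) nor the fall (-0.40, adjusted p 0.212) passed. Eno1b is a nearly identical copy, so reads may have been split between them. It carried the larger part, with medians of 114, 216 and 111 RPKM, and fell with DM-aKG by 0.84 (adjusted p 5.75e-05). The sum of Eno1 and Eno1b had a median of 133 in WT, 246 in control and 131 with DM-aKG, and the control libraries (181 to 291) lay above all DM-aKG libraries (124 to 161) and all WT libraries (91.3 to 175).

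Pkm, the pyruvate kinase of tumours and most tissues, was 128, 162 and 260 RPKM in WT, 247, 330 and 419 in control and 152, 174 and 235 with DM-aKG. It rose by 0.89 (adjusted p 5.77e-05) and fell by 0.81 (SE 0.16, adjusted p 0.0006), and DM-aKG libraries lay under every control library. The table does not separate the splice forms of Pkm. Ldha, the lactate dehydrogenase subunit that favours lactate, was the most abundant member in each group by its median, at 416, 445 and 330. It was not called in control over WT (0.11, SE 0.18, adjusted p 0.633), and fell with DM-aKG against control by 0.64 (SE 0.19, adjusted p 0.0134) and against WT by 0.53 (adjusted p 0.0317). The first of these was -0.47 with an adjusted p of 0.098 under median-of-ratios scaling. The second was lost when DM-aKG replicate 2, DM-aKG replicate 5 or any of WT replicates 1, 2 and 3 was left out, with adjusted p from 0.0524 to 0.097. Gapdh, Ldha, Tpi1, Pgk1, Aldoa and Pkm have processed pseudogenes that can take reads.

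Of the 10 other hypoxia-inducible genes, 8 were higher and 1 lower in control than in WT, with a median change of 1.12. The share of all genes called higher there was 43.2%. With DM-aKG 4 were lower and 0 higher than in control, where 27.6% of all genes were called lower. Their median change was -0.292, which is -0.15 once the all-gene median is taken off.

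Car9 (chr4:43506966-43513729, forward strand), a carbonic anhydrase of the cell surface that is used as a marker of hypoxia, was 12.9, 15.2 and 17.4 RPKM in WT, 23.7, 34.9 and 45.1 in control and 7.87, 12.1 and 16.2 with DM-aKG. Control libraries lay above all others. Car9 rose by 1.10 (adjusted p 2e-06) and fell by 1.44 with DM-aKG (SE 0.15, adjusted p 3.24e-07), the smallest p of the 32 members in that comparison. Against WT its change was -0.34 (adjusted p 0.0665), and it was called lower without control replicate 1, DM-aKG replicate 2 or DM-aKG replicate 4 (adjusted p 0.0452, 0.0302 and 0.0498). Its relative Car12 spread from 1.19 to 12.8 RPKM over the libraries and was not called in any comparison.

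Ankrd37, an ankyrin repeat gene induced by HIF, had medians of 5.77, 20.4 and 9.71 RPKM and fell with DM-aKG by 1.17 (SE 0.30, adjusted p 0.0049), a call that was lost with the smooth muscle covariate (-1.09, adjusted p 0.0634). Adm, which encodes the vessel-dilating peptide adrenomedullin, was 0.617, 0.835 and 2.8 in WT, 5.15, 6.16 and 9.09 in control and 2.29, 3.13 and 6.38 with DM-aKG. Its mean was 5.92-fold higher in control than in WT, and it fell by 0.73 with DM-aKG (SE 0.19, adjusted p 0.00605) to a level above WT (1.16, adjusted p 0.000162). In replicates 1 to 4 alone the fall was -0.71 with an adjusted p of 0.0742. Bnip3l, a mitophagy receptor, had medians of 19.6, 45.3 and 33.8 and fell by 0.44 (SE 0.12, adjusted p 0.00861). That call did not hold with median-of-ratios scaling (-0.28, adjusted p 0.12) or with the smooth muscle covariate (-0.15, adjusted p 0.44).

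Other members of the group were above WT in both Apc Min groups and were not called between them. Ndrg1 (chr15:66929318-66969640, reverse strand), a differentiation and stress gene, was 16.4, 22.6 and 30.7 RPKM in WT, 40.4, 107 and 165 in control and 78.1, 93.2 and 163 with DM-aKG. Both Apc Min groups lay above all WT libraries, by 2.07 in control (adjusted p 5.94e-07) and by 2.07 with DM-aKG (adjusted p 7.2e-06), and the difference between them was -0.01 (SE 0.25, adjusted p 0.986). Vegfa, the growth factor for blood vessels, was 13.1, 18.9 and 20.1 in WT, 24.6, 36.3 and 40.1 in control and 29.9, 38 and 42.8 with DM-aKG, so that both Apc Min groups again lay above WT. Its change with DM-aKG against control was 0.13 (SE 0.12, adjusted p 0.456) and against WT 1.04 (adjusted p 5.47e-06). Bnip3, also a mitophagy receptor, had medians of 9.96, 49.3 and 37.8. It was higher than WT in control by 2.14 (adjusted p 1.06e-09) and with DM-aKG by 1.78 (adjusted p 2.69e-07), and its change of -0.36 with DM-aKG against control had an adjusted p of 0.0856. Without control replicate 6 the latter was -0.46 with an adjusted p of 0.0226.

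Higd1a, a mitochondrial survival gene, had medians of 13.8, 22.7 and 21.7 RPKM, was higher in control than in WT (0.83, adjusted p 0.00311) and was not called with DM-aKG against control (-0.22, adjusted p 0.48). Mxi1, a Myc antagonist, went against the group. It had medians of 26, 15.6 and 12.8 and was lower than WT both in control (-0.79, adjusted p 0.000226) and with DM-aKG (-0.88, adjusted p 0.000405).

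Hif1a (chr12:73901375-73947530, forward strand) itself was 10.5, 15.9 and 18.5 RPKM in WT, 15.1, 39.1 and 58.9 in control and 9.96, 15 and 38.7 with DM-aKG. The control libraries were widely spread, and the groups overlapped. Its transcript rose by 1.14 in control over WT (SE 0.29, adjusted p 0.00251) and fell by 1.05 with DM-aKG (SE 0.30, adjusted p 0.0115). DM-aKG replicate 2 held the value of 38.7, with the next library at 17.4, and without it the change was -1.30 (adjusted p 0.0011). The rise was not called in replicates 1 to 4 alone (0.86, adjusted p 0.0926) or with the smooth muscle covariate (0.84, adjusted p 0.159). The fall was not called in replicates 1 to 4 alone (-0.62, adjusted p 0.323) or with the smooth muscle covariate (-0.80, adjusted p 0.17), and it was -1.63 in replicates 5 to 7 alone (adjusted p 0.00225).

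Among 9 other components of the HIF pathway, 6 were higher and 0 lower in control than in WT, where 43.2% of all genes were higher. With DM-aKG 4 were lower and 0 higher than in control, where 27.6% of all genes were lower. The median change of the 9 with DM-aKG was -0.102 against -0.142 for all genes, and 4 of 9 lay below the all-gene median. Epas1, the second alpha subunit, had medians of 17, 20 and 27.6 RPKM and was not called with DM-aKG (0.29, adjusted p 0.158). Arnt2, a partner subunit, had medians of 0.723, 4.71 and 1.38 and fell by 1.26 (adjusted p 3e-06), with no overlap between groups. Egln3, an oxygen sensor that HIF itself induces, had medians of 27.1, 59.2 and 32.1 and fell by 0.92 (adjusted p 0.00066). Egln1, the main oxygen sensor, fell by 0.29 (adjusted p 0.0268) and Vhl, the substrate receptor for the marked subunit, by 0.34 (adjusted p 0.0102). Hif3a, the third alpha subunit, had low medians of 0.227, 1.45 and 1.84 and was not called with DM-aKG against control (0.37, adjusted p 0.216), while it was higher than WT in both Apc Min groups (0.94, adjusted p 0.00104, and 1.31, adjusted p 0.00023).

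A list of 25 further hypoxia-inducible genes, 24 of them tested (Ppfia4 was too low), gave calls in 1 direction in each of these comparisons. In control 18 were higher and 0 lower than in WT, where 43.2% of all genes were higher. With DM-aKG 10 were lower and 0 higher than in control, where 27.6% of all genes were lower. The median change with DM-aKG was -0.333 against -0.142 for all genes. The genes with the smallest p were P4ha2 and Loxl2, which modify collagen, Ak4, a mitochondrial adenylate kinase, Ero1l, an oxidase of protein folding, Fam162a, a HIF-responsive mitochondrial gene, and Hmox1, heme oxygenase. Fam162a had medians of 22.2, 89.6 and 33.5 RPKM and fell by 1.51 (adjusted p 4.98e-05). P4ha2 fell by 1.21 (adjusted p 4.44e-07), Loxl2 by 1.14, Hmox1 by 1.02, Ak4 by 0.97 and Ero1l by 0.87. Ero1l ended under WT (-0.32, adjusted p 0.0208).

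The other glycolytic isozymes and sugar entry genes gave calls in both directions. Of 24 such genes 18 were tested, and 4 were higher and 3 lower with DM-aKG than in control, with a median change of 0.104. The shares of all genes in that comparison were 5.91% higher and 27.6% lower. Among the untested genes were Hk3, Pfkfb1, Gapdhs, Pgam2 and Slc16a7. Hkdc1, a member of the hexokinase family, had medians of 69.8, 38.1 and 63.6 RPKM. It was lower in control than in WT (-0.92, adjusted p 0.000325) and higher with DM-aKG than in control (0.73, adjusted p 0.00665). Slc5a1, the sodium-coupled glucose carrier of absorptive cells, had medians of 562, 225 and 349 and rose by 0.59 with DM-aKG (adjusted p 0.0246), while staying under WT by 0.82 (adjusted p 0.00312). Mpc1, a subunit of the mitochondrial pyruvate carrier, rose by 0.35 (adjusted p 0.00805) and Eno2, the neuronal enolase, by 0.26 (adjusted p 0.017). Beside Eno1b, Adpgk, a sugar kinase that uses ADP, fell by 0.41 (adjusted p 0.0211) and Bpgm, a bisphosphoglycerate mutase, by 0.36 (adjusted p 0.00368). Ldhb, the other lactate dehydrogenase subunit, had medians of 10.2, 10.2 and 9.29 and was not called.

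Shares of an isozyme in the summed RPKM of its family do not depend on how a library is scaled. They were compared with 2-sided exact permutation tests, adjusted over 15 tests. Slc2a1 made up 9.21% ± 7.71 (SD, n = 7) of the 4 hexose transporters Slc2a1, Slc2a2, Slc2a3 and Slc2a5 in WT, 60.1% ± 13.8 (n = 7) in control and 16.3% ± 9.44 (n = 6) with DM-aKG. The difference was 50.9 percentage points from WT to control (exact permutation test, adjusted p 0.00437) and -43.8 from control to DM-aKG (exact permutation test, adjusted p 0.00874), and that of 7.10 between DM-aKG and WT did not pass (adjusted p 0.202, exact permutation test). The enterocyte carrier Slc2a2 made up 49.1% ± 21.4 in WT, 15.4% ± 8.83 in control and 44.7% ± 7.53 with DM-aKG. For Slc2a5, also an enterocyte carrier, the shares were 40.1% ± 13.1, 23.5% ± 7.28 and 37.3% ± 7.98. The shares of Slc2a2 and Slc2a5 were not tested, and a lower Slc2a1 share by itself raises them. Neither gene was itself called higher with DM-aKG than in control.

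Hk2 held 15.9% ± 8.20 of the hexokinase sum (Hk1, Hk2, Hk3 and Hkdc1) in WT, 26% ± 12.3 in control and 9.04% ± 6.24 with DM-aKG. The difference of -17.0 points between DM-aKG and control passed (exact permutation test, adjusted p 0.0105) and the other comparisons did not. Without WT replicate 2, however, the control to WT difference of 13.1 points had an adjusted p of 0.00874 (exact permutation test), and without DM-aKG replicate 2 the DM-aKG to WT difference of -9.33 had an adjusted p of 0.00631 (exact permutation test). Hkdc1 was the main form by the mean of each group, at 76.7% ± 8.28, 54.6% ± 12.9 and 81.7% ± 8.29. In control replicate 6, however, Hk2 held 52.4%. Pfkp fell from 88.3% ± 1.54 of the phosphofructokinase sum in WT to 61.3% ± 5.25 in control (-27.0 points, exact permutation test, adjusted p 0.00437), while Pfkl made up 7.91% and 34.7%. With DM-aKG Pfkp stood at 68.4% ± 3.41, still under WT by 19.9 points (exact permutation test, adjusted p 0.00583). Its difference of 7.10 points from control (exact permutation test, adjusted p 0.0437) was lost when any of control 2, 3, 4 or 7 or DM-aKG 1, 2, 3, 4 or 6 was left out, with adjusted p from 0.0631 to 0.0812.

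Ldha held 97.7%, 97.8% and 96.8% of the lactate dehydrogenase sum. Its difference of -0.934 points with DM-aKG against control had an adjusted p of 0.0505 (exact permutation test), which went to between 0.0216 and 0.0455 without control 3, control 5, DM-aKG 6 or WT 2, the last through the adjustment only.

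**Figure D3:**
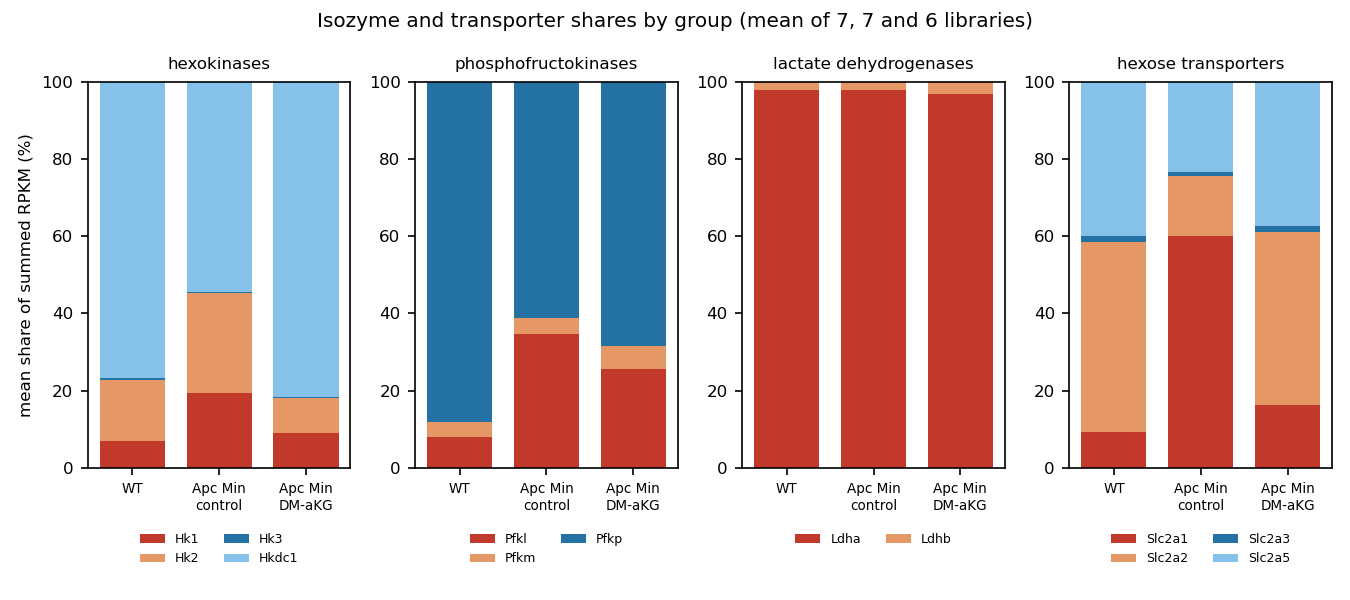
Mean share of each isozyme or transporter in the summed RPKM of its family, in percent, for WT, Apc Min control and Apc Min DM-aKG (7, 7 and 6 libraries), as stacked bars. The share of Slc2a1 among hexose transporters is 9.21% in WT, 60.1% in control and 16.3% with DM-aKG, while the phosphofructokinase bar with DM-aKG (Pfkp 68.4%) lies nearer to control than to WT.

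Set against WT, the DM-aKG libraries had 12 members higher and 5 lower, where 21.9% of all genes tested were called higher and 17.3% lower. The 12 were 5 enzymes (Gpi1, Pfkl, Pfkfb4, Aldoc and Pgk1), Slc2a1, and 6 other hypoxia-inducible genes (Vegfa, Adm, Bnip3, Bnip3l, Ndrg1 and Higd1a). The 5 lower were Hk2, Pfkp, Tpi1, Ldha and Mxi1. Pfkfb4 (0.40, adjusted p 0.0446) and Higd1a (0.61, adjusted p 0.0408) were the calls nearest the threshold among the 12, and each was lost when any of several single libraries was left out, with adjusted p up to 0.0785 and 0.0997. In replicates 5 to 7 alone 5 members were higher and 1 lower. Of the 11205 genes tested there, 147 were higher and 247 lower.

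The libraries of a group were not alike. DM-aKG replicate 2 was the highest of the 6 DM-aKG libraries for 11 of the 19 members that fell with DM-aKG, and DM-aKG replicate 5 the lowest for 9. Without DM-aKG replicate 2, 18 members were lower and 1 was higher. Among control libraries replicate 4 was the highest for 10 of these 19 members and replicate 5 the lowest for 10. For Aldoa, Tpi1, Gapdh, Pgam1 and Ldha replicate 5 was the lowest library in each of the 3 groups, WT included. Groups without overlap were found for 6 members that were lower with DM-aKG (Hk1, Aldoc, Gapdh, Pkm, Slc16a3 and Car9), where 8.19% of all genes showed this, and for 13 that were higher in control than in WT, where 20.4% did.

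**Figure D4:**
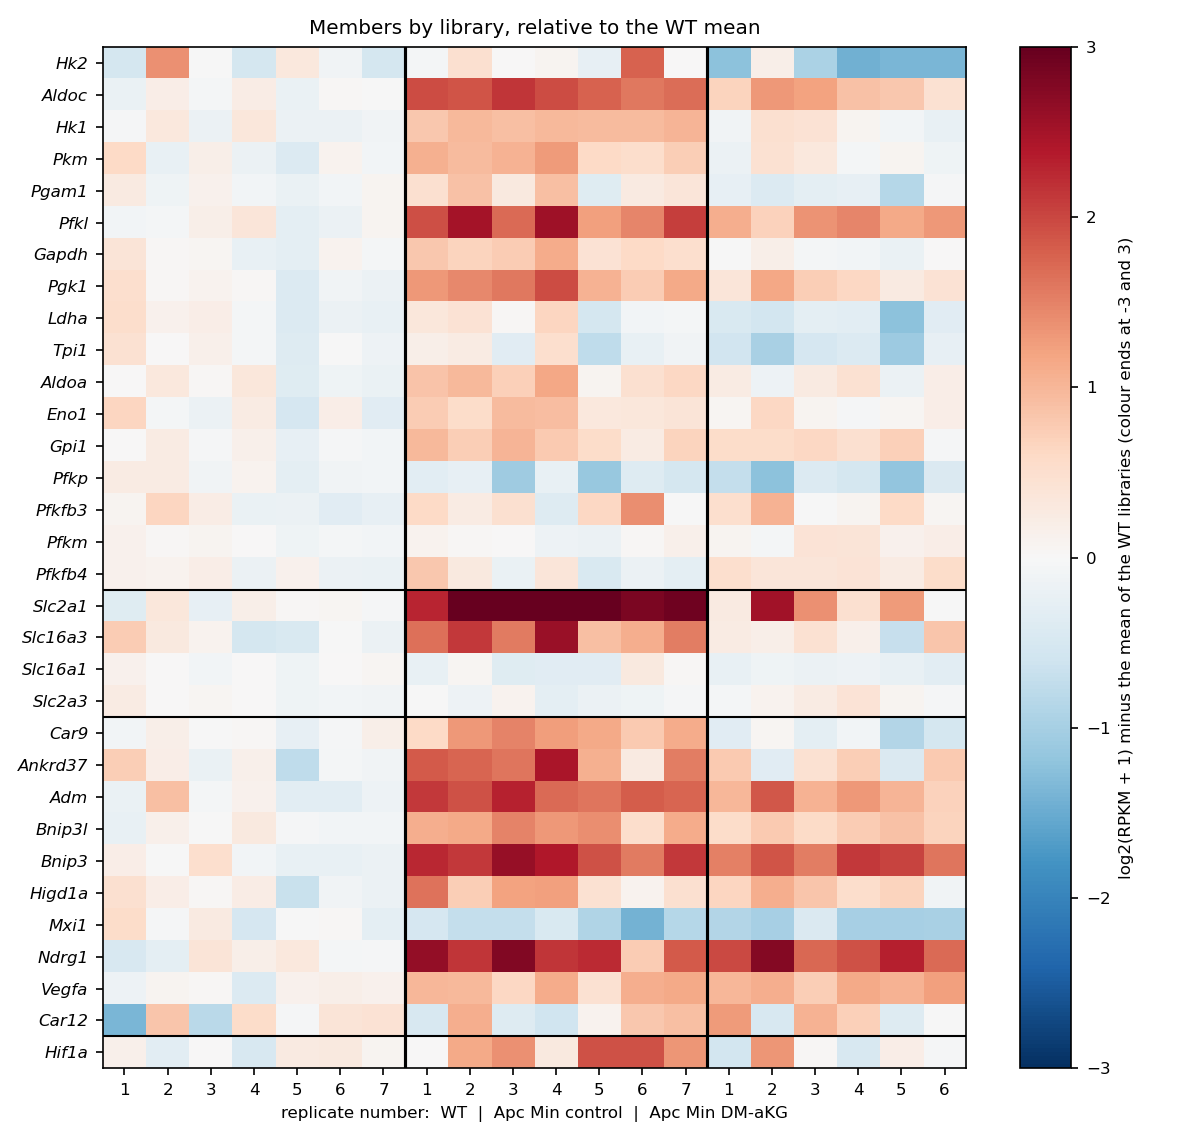
log2(RPKM + 1) of each member in each of the 20 libraries minus the mean of the WT libraries (red higher, blue lower, colours end at -3 and 3), with libraries ordered by group and replicate number. Slc2a1 is dark red across the control libraries and in DM-aKG replicate 2 and paler in the other DM-aKG libraries, while the Ndrg1 and Bnip3 rows are red in both Apc Min groups.

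Markers of other cells and of Wnt activity also differed between groups, though not every cell type did so in each comparison. The summed RPKM of 10 smooth muscle markers, lowest, median and highest, was 896, 1182 and 1554 in WT, 353, 563 and 1241 in control and 769, 1164 and 1395 with DM-aKG, and all 10 were lower in control than in WT and higher with DM-aKG than in control. With their mean as a covariate 15 members were lower with DM-aKG, Slc2a1 among them (-1.66, adjusted p 0.0061). Among all 12433 genes tested, 3432 were lower without the covariate and 2296 with it. The calls of Pgk1, Eno1, Bnip3l, Ankrd37 and Hif1a were lost with the covariate, and Slc16a1 was called in addition. The sum of 8 fibroblast markers was 90.0 to 169 in WT, 238 to 344 in control and 125 to 216 with DM-aKG. In control 6 of the 8 were higher and 1 lower than in WT. With DM-aKG 5 were lower and 1 higher than in control, where 27.6% of all genes were lower and 5.91% higher. The sum of 7 Wnt target genes such as Axin2 and Notum was 14.3 to 25.8 in WT, 192 to 446 in control and 14.7 to 129 with DM-aKG, where replicate 2 gave 129 and the next library 44.8. All 7 fell with DM-aKG. Of 8 proliferation genes, 3 were called lower with DM-aKG than in control, where 27.6% of all genes were. All 8 changes lay below 0 and below the all-gene median of -0.142, and their median was -0.659. The sum of 8 lymphocyte markers was 256 to 735 in WT, 40.6 to 121 in control and 66.9 to 216 with DM-aKG. That of 6 erythroid markers was 15.3 to 51.5 in WT, 8.17 to 320 in control and 60.4 to 404 with DM-aKG. Between DM-aKG and control 0 of 6 lymphocyte and 0 of 5 erythroid markers tested were called. The sum of 8 endothelial markers was 23.5 to 57.2 in WT, 58.1 to 74.7 in control and 55.5 to 82.3 with DM-aKG. With DM-aKG 1 of 8 endothelial and 2 of 7 myeloid markers tested were lower than in control, and 0 were higher. Of 8 epithelial markers, 4 were lower and 1 higher in control than in WT, where 15.7% of all genes were lower. With DM-aKG 5 were lower and 1 higher than in control, with a median change of -0.361 against -0.142 for all genes. The part of the epithelial, fibroblast, Wnt, proliferation, lymphocyte, erythroid, endothelial and myeloid values in the changes of the members was not tested. In such bulk libraries fewer cells of a type and less RNA per cell cannot be told apart.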

How the data were processed

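RNA was measured in 20 mouse intestinal libraries, made from total RNA with a Qiagen kit and an Illumina TruSeq kit, per the labels' protocols. The deposited table holds 24795 genes by 20 libraries, read here as RPKM made by the authors. No source names the unit. It was read from the values, since they are fractional, their steps differ between genes, and libraries sum to between 277625 and 369400. The tools named per the submitters' processing notes are HISAT2 2.0.4, CASAVA 1.8 and Partek, on mm10. Roles, annotation and strand setting: not given in the sources used here. RPKM divides by the library total, so large changes in abundant genes move all others. Of 820 to 1012 low values per library, 67.1 to 73.3% lay within 0.1 read of a whole number (20% if evenly spread), which is too few to rebuild counts, and count models were not used.

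A gene entered the fit if 6 or more libraries held 1 RPKM or more (12433 genes, all 32 members among them), and log2(RPKM + 1) was fitted for all 3 groups with limma 3.58.1 in R 4.3.3 (trend and robust settings, statmod 1.5.0), 2-sided, with a Benjamini-Hochberg threshold of 0.05. Isozyme shares were tested with scipy 1.17.1 by exact permutation, 2-sided. That test cannot go below 0.000583 with 7 libraries a side or below 0.00117 with 6 and 7. Groups and replicate numbers came from the sample titles. The labels do not say what a shared replicate number means, and the main fit did not pair libraries by it. Deviations from the group means of same-numbered control and DM-aKG libraries correlated from -0.457 (replicate 2) to 0.604 (replicate 5) across genes. For control and WT they ran from -0.302 to 0.513. Libraries of unlike number were not compared, so these values cannot decide whether same-numbered libraries shared a batch. On simulated data with changes of 0.5, 1 and 2 (log2) planted in 67, 67 and 66 genes, the DM-aKG over control fit over 12433 genes recovered 52.2, 88.1 and 98.5% of them, with 11 false calls of 170. The noise there was simulated and independent between genes.

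The members, the gene lists and the split into replicates 1 to 4 and 5 to 7, which no label gives, were chosen with earlier results of these data known. Named genes are all members, and of the 3 pathway lists up to 6 genes each with the smallest p for DM-aKG over control, with Ldhb, Egln3 and Epas1 added. Some genes and shares covered by these rules are not reported here, though the adjustment over 15 share tests includes them. Slc5a1 was named after its values were seen, and Pfkfb2 stands in 2 lists. Alternatives varied the pseudocount (0.1), the filter, the scaling, the groups in the fit, the replicate sets, a block by replicate number and a smooth muscle covariate, and left out each library in turn. Gene positions are from GENCODE M21. Python 3.11.15, numpy 2.4.6, pandas 2.3.3 and matplotlib 3.10.9 were used for the tables and figures.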

Additional observations from a re-analysis of the deposited data

Results flagged for a closer look

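Single libraries that stood apart from the others of their group were looked for in 111 groups of 6 or 7 values, by the gap of the highest or lowest value to its neighbour as a share of the whole range. There were 14, where chance flags about 1 in 20 groups, or 5.55 of them. The groups were not independent, since Hk2 and its share were flagged together in WT 2, control 6 and DM-aKG 2. Setting 14 against 5.55 is therefore not a test of an excess. DM-aKG replicate 2 stood above the other DM-aKG libraries for Hk2 (15.1 RPKM), Eno1 (30.9), Slc2a1 (31.9), Hif1a (38.7) and the share of Hk2 among hexokinases (21.6%). These values come from 1 library and 2 of them from the same gene. Control replicate 6 stood high for Hk2 (48 RPKM), for the Hk2 share (52.4%) and for Pfkfb3 (16.3 RPKM). WT replicate 2 stood high for Hk2 (36.2 RPKM), the Hk2 share (33.3%) and Adm (2.8 RPKM). DM-aKG replicate 3 stood high for Mxi1 (19.2 RPKM). On the low side stood DM-aKG replicate 5 for Ldha (186 RPKM) and control replicate 1 for the share of Slc2a1 among hexose transporters (30.9%).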

How the results depend on the processing

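The count of members lower with DM-aKG was 14 to 20 under the alternatives other than replicates 5 to 7 alone, where it was 9, and 17 to 20 with 1 library left out. The count higher was 0, and it was 3 with quantile, median-of-ratios or upper-quartile scaling (Pfkm, Pfkfb4 and Slc2a3), 1 without the filter, with the looser filter, with the replicate set as a factor and in replicates 5 to 7, and 0 to 2 with 1 library left out. For control over WT, members lower numbered 5 with quantile normalization, 4 with median-of-ratios or upper-quartile scaling, 1 with the smooth muscle covariate and 1 in replicates 5 to 7 (2 to 3 with 1 library left out), and members higher 20 to 21 with 1 left out. Pfkm changed direction there, to -0.28 (limma adjusted p 0.0141) with quantile normalization. For DM-aKG over WT, members lower numbered 8 with only those groups fitted and 1 in replicates 5 to 7 (3 to 6 with 1 left out), and members higher 5 in replicates 5 to 7 (10 to 12 with 1 left out). The cause of the lower counts in replicates 5 to 7 was not tested. Among all genes, 2382 of 11205 were lower with DM-aKG than in control there. In replicates 1 to 4 alone 1613 of 11763 genes were.

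With the replicate number as a block, 19 members were lower and 0 higher with DM-aKG, 21 higher and 2 lower in control over WT, and 11 higher and 6 lower in DM-aKG over WT (Pfkfb4 lost, Car9 gained), and no other member's call changed.

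In replicates 1 to 4 alone, where the exact tests have fewer libraries, these share differences kept their direction without passing the adjusted threshold: Hk2 -11.2 and Pfkp 10.1 with DM-aKG over control, Pfkp -29.3 and -19.2 for control and DM-aKG over WT, Ldha -0.667 for DM-aKG over WT, and Slc2a1 -36.9 with DM-aKG over control and 44.6 for control over WT. With 4 libraries a side the exact p has a floor, and the lowest of these adjusted p was 0.107 (exact permutation test). Not passing in replicates 1 to 4 therefore cannot decide whether these differences hold there. In replicates 5 to 7, Pfkp control over WT was -23.9 and Slc2a1 control over WT 59.3. The Ldha differences were -0.239 for control and -1.27 for DM-aKG over WT. With 1 library left out, differences in percentage points (DM-aKG over control, control over WT, DM-aKG over WT) ran from -19.5 to -12.6, 5.76 to 13.1 and -9.33 to -3.90 for Hk2, from 6.25 to 8.68, -28.6 to -26.1 and -20.5 to -18.7 for Pfkp, from -1.11 to -0.639, -0.0867 to 0.176 and -1.06 to -0.585 for Ldha, and from -48.7 to -41.8, 48.9 to 55.8 and 3.52 to 8.99 for Slc2a1.

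Whether changes differed between replicates 1 to 4 and 5 to 7 was tested in limma for each member: 0 of 32 passed in any comparison, and 1 (Pfkfb4, DM-aKG over control, adjusted p 0.393) had an unadjusted p under 0.05. Members with the lowest values rest on the fewest reads.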
